A study of Mus musculus with 30 samples.

Results

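The genes described here are 8 genes of the LIF receptor and STAT3 pathway, read in mouse embryonic stem (ES) cells with and without Tdg, the gene of thymine DNA glycosylase, which removes oxidised forms of methylated cytosine from DNA. They are Lif, Lifr, Il6st, Jak1, Stat3, Socs3, Pim1 and Pim3, taken by symbol from the 2 deposited expression tables, and all 8 of the 20286 symbols had 1 row in each table. The groups were Tdg -/- ES cells, in which the gene is deleted, and Tdg fl/fl ES cells, which carry floxed alleles of it. Both were of the C57BL/6-ICR strain. The labels name 2 polyA RNA libraries for each genotype, read at 51 bp, and each table gives 1 FPKM value per gene for a genotype, a level scaled by transcript length and library size. No spread between replicates can be had from 1 pooled value, so no difference below has a test or an error, and the labels do not state how many ES clones stood behind a genotype.

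Leukaemia inhibitory factor (LIF) is the cytokine that keeps mouse ES cells in self-renewal in culture. It binds the LIF receptor, which pairs with the shared signal transducer gp130, the product of Il6st. JAK kinases bound to the pair then phosphorylate the transcription factor STAT3, which enters the nucleus and raises, among others, Socs3, an inhibitor that binds the receptor and closes the loop, and the PIM kinases. The growth protocol in the labels, given for the embryoid body and H3K4me1 libraries of the series, names LIF at 1000 units/ml together with CHIR99021, an inhibitor of GSK3, and PD0325901, an inhibitor of the kinase MEK. Whether the cells of the RNA libraries grew in the same medium is not stated in the labels.

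All 8 genes were read at 1 FPKM or more in both genotypes, and their levels spanned a wide range. In Tdg -/- cells the order from the highest was Pim1, Pim3, Socs3, Il6st, Stat3, Lifr, Jak1 and Lif, and it was the same in Tdg fl/fl cells. Without replicates it cannot be said which neighbours in this order lie apart by more than their spread. No gene of the 8 changed by a log2 value of 1 or more, where the change is log2 of (Tdg -/- FPKM + 1) over (Tdg fl/fl FPKM + 1). A gene was measured where it reached 1 FPKM in at least 1 genotype. Of the 12053 genes measured, 0.357% changed by that much, 0.183% upward and 0.174% downward. Of the 8 genes, 6 were above 0 and 2 below, with a median of 0.06, beside 45.1% of all genes measured above 0 and a median of -0.02. The 8 values lay between -0.21 and 0.31, inside the range from -0.43 to 0.44 that holds the central 95% of all genes measured.

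**Figure D1:**
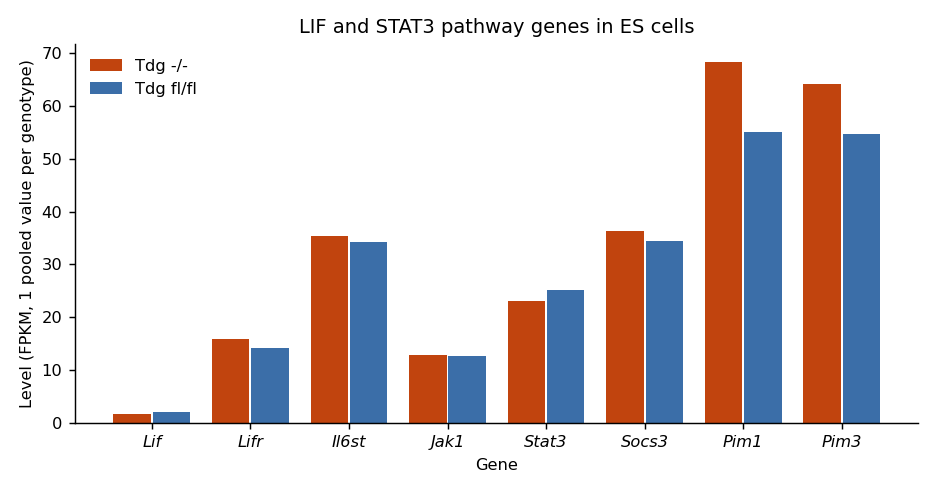
Level of each of the 8 genes in FPKM, with Tdg -/- ES cells left and Tdg fl/fl ES cells right in each pair, 1 pooled value per bar and no error. Pim1 and Pim3 stand highest in both genotypes, at 68.3 and 64.2 FPKM in Tdg -/- cells and 55.1 and 54.7 FPKM in Tdg fl/fl cells, and Lif lowest.

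The ligand was the scarcest transcript of the set. Lif had 1.62 FPKM in Tdg -/- cells, against 2.04 FPKM in Tdg fl/fl cells, a log2 change of -0.21 and a difference of -20.6% of the Tdg fl/fl level. It stood above only 8.10% of measured genes in Tdg -/- cells and above 12.1% in Tdg fl/fl cells. At such levels the value added before the logarithm matters, and with 0.1 in place of 1 FPKM the change was -0.32. Of all genes measured, 25.0% had an absolute change at least as large as that of Lif.

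Both receptor subunits were well above the ligand. Il6st, which encodes gp130, had 35.4 FPKM in Tdg -/- cells, against 34.3 FPKM in Tdg fl/fl cells, a log2 change of 0.05. Lifr, the subunit that binds LIF itself, had 15.9 FPKM in Tdg -/- cells, against 14.2 FPKM in Tdg fl/fl cells, a log2 change of 0.16. Lifr thus stood at 0.450 of the Il6st level in Tdg -/- cells and at 0.413 of it in Tdg fl/fl cells. An absolute change as large as that of Lifr was seen in 37.2% of measured genes, and one as large as that of Il6st in 79.4%.

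The kinase and the transcription factor differed little. Jak1, one of the kinases that gp130 carries, had 12.8 FPKM in Tdg -/- cells, against 12.6 FPKM in Tdg fl/fl cells, and its log2 change of 0.02 was smaller in size than that of 91.8% of measured genes. Stat3 had 23.0 FPKM in Tdg -/- cells, against 25.2 FPKM in Tdg fl/fl cells, a log2 change of -0.12. STAT3 is switched on by phosphorylation, which transcript levels do not show. In the RefSeq annotation Jak1 overlaps Raver2, read at 3.10 FPKM in Tdg -/- cells and 2.09 FPKM in Tdg fl/fl cells, and without a stated strand the reads of both cannot be told apart where they overlap. The same limit holds for Stat3, Pim1 and Pim3, which overlap Gm46295, Gm26885 and Gm33049, whose levels were not analysed here.

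Socs3, Pim1 and Pim3, the genes of the set that STAT3 is known to raise, were its most abundant, and all were higher in Tdg -/- cells. Of 13 further measured genes that STAT3 is known to raise, listed below, 5 were above and 8 below 0. Socs3 had 36.4 FPKM in Tdg -/- cells, against 34.4 FPKM in Tdg fl/fl cells, a log2 change of 0.08. An absolute change as large as that of Socs3 was seen in 65.7% of measured genes. Pim1, a serine/threonine kinase that favours survival and proliferation, had 68.3 FPKM in Tdg -/- cells, against 55.1 FPKM in Tdg fl/fl cells, a log2 change of 0.31 and a difference of 24.1%. This was the largest change among the 8 genes. Of measured genes, 6.19% were as high or higher, and 12.7% had an absolute change as large. Pim3, a closely related kinase, had 64.2 FPKM in Tdg -/- cells, against 54.7 FPKM in Tdg fl/fl cells. Its log2 change was 0.23 and its difference 17.4%. For Pim3, 10.5% of measured genes were as high or higher, and 22.8% had an absolute change as large. Relative to Stat3, the Socs3 level was 1.58 in Tdg -/- cells and 1.37 in Tdg fl/fl cells.

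Jak1, Stat3, Socs3 and Pim1 were each the most abundant of the transcripts of their family read here, in both genotypes and on the FPKM scale. Pim1 was only 1.06 times as high as Pim3 in Tdg -/- cells and 1.01 times in Tdg fl/fl cells. Without a spread, such a narrow lead cannot be told from a tie. Of 6 STAT genes, Stat3 supplied 40.8% of the summed FPKM in Tdg -/- cells and 41.6% in Tdg fl/fl cells. Next came Stat2, an interferon response factor, at 13.3 FPKM in Tdg -/- cells and 14.1 FPKM in Tdg fl/fl cells, while Stat5a, Stat5b and Stat4 lay between 2.65 and 3.30 FPKM in Tdg -/- cells and between 2.53 and 3.42 FPKM in Tdg fl/fl cells. Stat5a and Stat5b are close paralogs, between which the authors' counting could split reads. Among the JAK genes, Jak1 led narrowly over Tyk2, at 11.9 FPKM in Tdg -/- cells and 11.2 FPKM in Tdg fl/fl cells, and Jak2 followed at 2.95 FPKM in Tdg -/- cells and 2.71 FPKM in Tdg fl/fl cells. Jak3 was not found in the tables and so was not analysed here.

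Among the SOCS family, Socs3 was 1.71 times as high as the next gene, Socs2, in Tdg -/- cells and 2.13 times as high in Tdg fl/fl cells. Socs2, best known for restraining growth hormone signalling, had 21.3 FPKM in Tdg -/- cells, against 16.2 FPKM in Tdg fl/fl cells. Socs1, which blocks JAK activity, was low, at 1.48 FPKM in Tdg -/- cells and 1.64 FPKM in Tdg fl/fl cells. The third PIM gene, Pim2 on chromosome X, was far below the other two, at 4.32 FPKM in Tdg -/- cells and 4.93 FPKM in Tdg fl/fl cells, while Pim1 and Pim3 made up 49.9% and 46.9% of the summed PIM level in Tdg -/- cells and 48.0% and 47.7% in Tdg fl/fl cells.

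Among 7 receptor genes of the IL-6 cytokine family, Il6st and Lifr ranked first and second. Il6ra, which binds interleukin 6, followed at 2.94 FPKM in Tdg -/- cells and 2.73 FPKM in Tdg fl/fl cells. Osmr, which pairs with gp130 to bind oncostatin M, was close to 0, at 0.05 FPKM in Tdg -/- cells and 0.04 FPKM in Tdg fl/fl cells. The ligands were scarce apart from Cntf, read at 25.0 FPKM in Tdg -/- cells and 24.0 FPKM in Tdg fl/fl cells. In the RefSeq annotation Cntf overlaps Gm44505, whose level was not analysed here, and reads of both cannot be told apart where they overlap. Il6 was listed at 0 in Tdg -/- cells and at 0.03 FPKM in Tdg fl/fl cells.

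**Figure D2:**
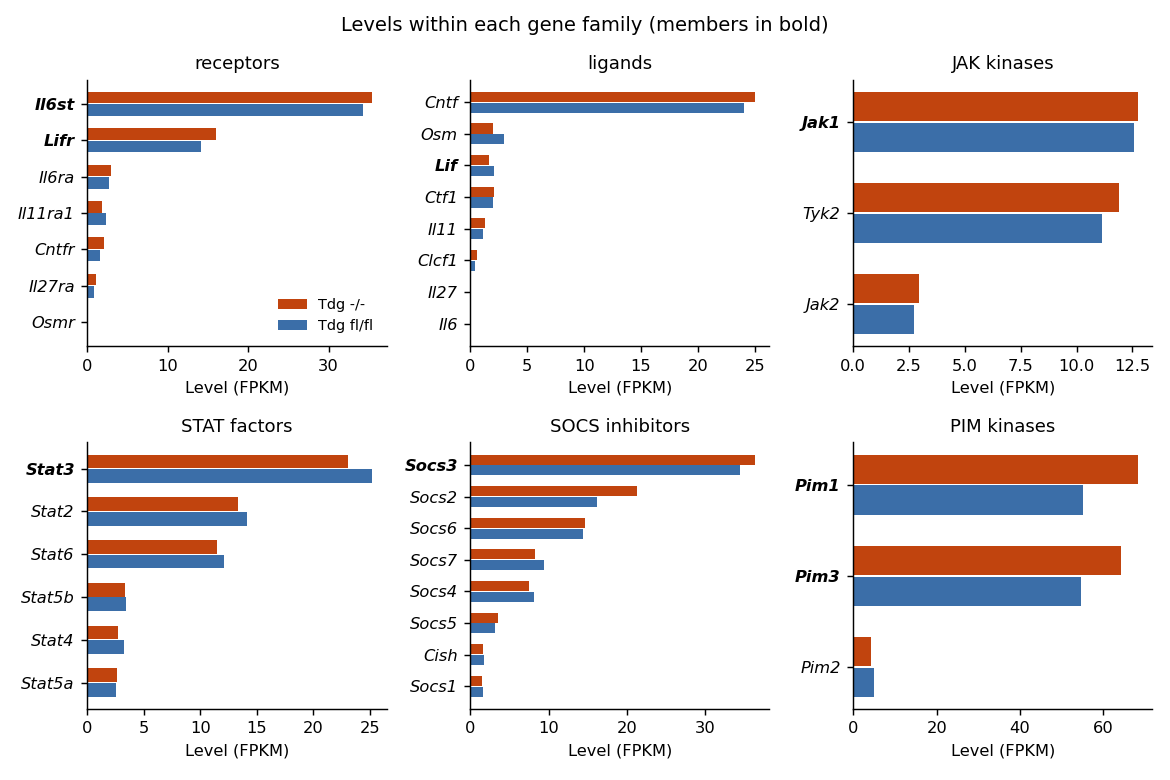
Levels in FPKM of 6 gene families around the pathway, with Tdg -/- ES cells (upper bar) and Tdg fl/fl ES cells (lower bar) for each gene, ordered by the Tdg fl/fl level, and with the 8 pathway genes in bold. Il6st, Jak1, Stat3, Socs3 and Pim1 head their panels in both genotypes, Jak1 and Pim1 only narrowly. Lif lies far below Cntf among the ligands.

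Around this core, other genes of the pathway were read by list, and in none did a gene pass a log2 change of 1 in either direction. Of 13 further ligand and receptor genes of the IL-6 family, 8 were measured, 6 above and 2 below 0, with a median of 0.07. Osm, the ligand oncostatin M, was at -0.44 (1.95 FPKM in Tdg -/- cells, 3.00 FPKM in Tdg fl/fl cells), Cntfr, the receptor of ciliary neurotrophic factor, at 0.29 and Il11ra1 at -0.20. All 3 lay near the minimum of 1 FPKM. Of 8 other JAK and STAT genes, 7 were found in the tables and all 7 were measured. Of these, 3 were above and 4 below 0, with a median of -0.04. Stat4 was at -0.22, and Jak2 and Tyk2 were both at 0.09.

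The 14 inhibitors of JAK-STAT signalling were all measured, with 5 above and 9 below 0 and a median of -0.06. Socs2 was at 0.37, and the phosphatase genes Ptpn1 and Ptpn6 were at -0.26 and -0.21. Of 16 further genes that STAT3 is known to raise in ES or other cells, 15 were found in the tables. Of these, 13 were measured, 5 above and 8 below 0, with a median of -0.06. The 3 with the largest changes were all higher in Tdg -/- cells. Cebpb, a leucine zipper factor, had a log2 change of 0.54, with 3.24 FPKM in Tdg -/- cells against 1.91 FPKM in Tdg fl/fl cells. Klf5, a factor of self-renewal, was at 0.50, and Smad7, an inhibitor of TGF-beta signalling, at 0.46, with 15.9 FPKM in Tdg -/- cells against 11.2 FPKM in Tdg fl/fl cells. Tfcp2l1, which belongs to this list, was not found in the tables and so was not analysed here.

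LIF also feeds the MAPK and PI3K routes. All 16 listed adaptors and kinases of these routes were measured, 4 above and 12 below 0, with a median of -0.06. Grb2, the adaptor that links receptors to RAS and a gene on chromosome 11, was at -0.31, with 34.3 FPKM in Tdg -/- cells against 42.8 FPKM in Tdg fl/fl cells. Hras, a RAS gene listed in the tables as Hras1, was at -0.29, with 9.39 FPKM in Tdg -/- cells against 11.7 FPKM in Tdg fl/fl cells, and Map2k2, a MEK kinase, was at -0.23. Of 10 genes that respond to ERK, 7 were measured, 5 above and 2 below 0, with a median of 0.10. Ccnd1, the cyclin D1 gene, was at -0.35, Spry1, a feedback inhibitor, at 0.26 and Dusp6, an ERK phosphatase, at 0.23.

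A property of position set 3 of the 8 genes apart. Lif, Stat3 and Socs3 lie on mouse chromosome 11, whose 999 measured genes had a median log2 change of -0.21 with 83.8% of them below 0. On the other 19 chromosomes the median lay between -0.03 and 0.004. The change of Lif was close to the middle of chromosome 11, with 505 of the 999 genes as high or higher, and that of Stat3 lay above the middle, with 321 as high or higher. Socs3 was higher than most of the chromosome, with 120 as high or higher. Lif and Stat3 were thus lower as the chromosome was, and the part of the chromosome-wide difference in their values was not tested. Socs3 had the opposite sign.

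Set against the median of the 25 nearest measured genes, Socs3 lay further above it than Lif and Stat3, which lay close to theirs. Around Lif this median was -0.27, so that Lif was 0.05 above it. Around Stat3 it was -0.20, so that Stat3 was 0.07 above it. Around Socs3 it was -0.24, so that Socs3 was 0.32 above it and higher than 24 of the 25 genes. The distance of Socs3 depended on how many neighbours were used, at 0.15 with 11 and 0.21 with 51 genes, and its sign did not. Osm and Hormad2, on either side of Lif, were at -0.44 and -0.54, and Birc5 and Pgs1, on either side of Socs3, were at -0.49 and -0.27. Stat5a and Ptrf, on either side of Stat3, were at 0.05 and -0.18.

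**Figure D3:**
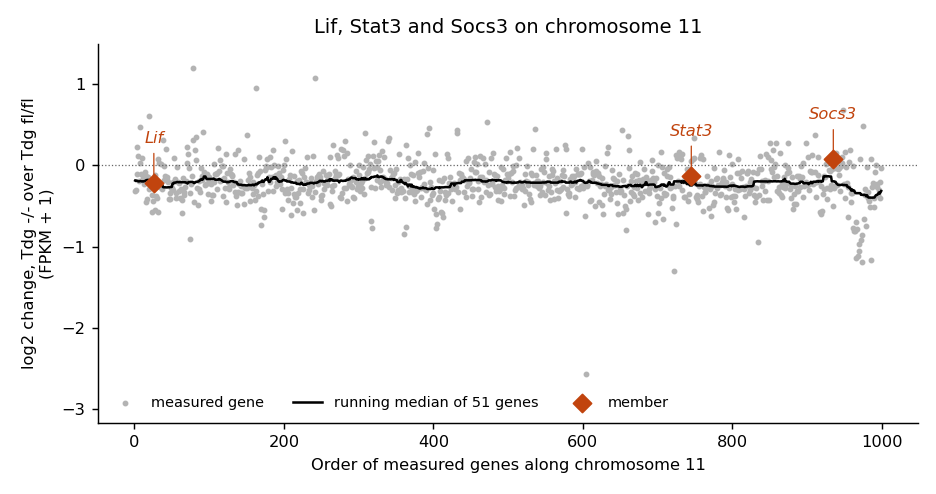
Log2 change (Tdg -/- over Tdg fl/fl, FPKM + 1) of the 999 measured genes in their order along chromosome 11 (grey), with the running median of 51 genes (line) and Lif, Stat3 and Socs3 (diamonds). The line stays below 0 along the chromosome, Lif and Stat3 lie near it, and Socs3, at 0.08, lies above it.

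The other 5 genes had neighbourhoods close to 0, with medians between -0.05 and 0.08. Pim1 was higher than all 25 of its neighbours, 0.36 above their median of -0.05, and 4.91% of 11972 genes stood as far or further above theirs. For Socs3 that share was 6.41%. Pim3 was 0.14 above its neighbours, whose median was 0.08, and Lifr was 0.13 above. Il6st, at 0.02, and Jak1, at -0.05, lay close to their neighbours. In all, 7 of the 8 genes were above their neighbours, beside 50.6% of all genes. The sign of this distance turned for Lif with 51 neighbours (-0.02) and with all genes on its chromosome (-0.002). For Lif it also turned with 0.1 FPKM added before the logarithm (-0.04). For Jak1 it turned with 11 neighbours (0.02) and with all genes on its chromosome (0.02).

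**Figure D4:**
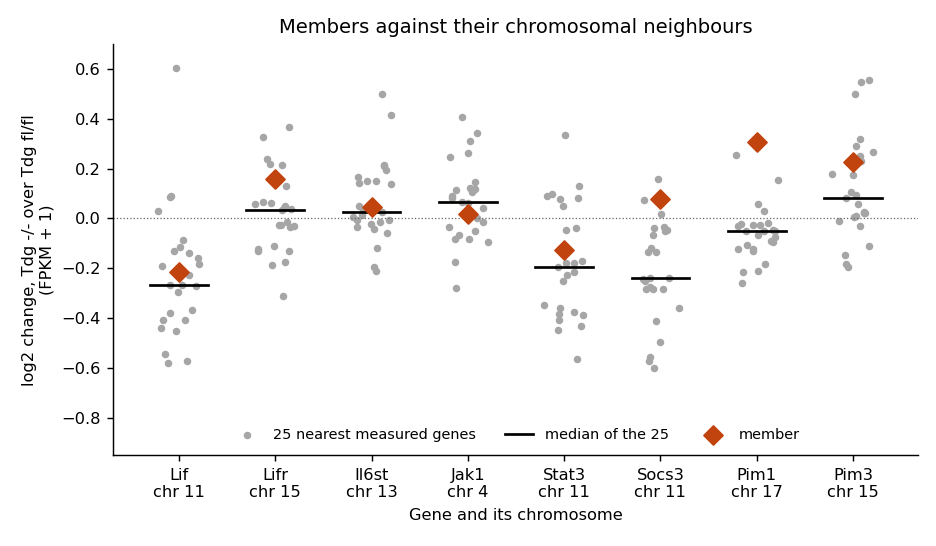
Log2 change (Tdg -/- over Tdg fl/fl, FPKM + 1) of each of the 8 genes (diamond), of the 25 measured genes nearest to it on its chromosome (grey points, spread sideways at random) and their median (line). Pim1 lies above all 25 and Socs3 above 24 of the 25, while Il6st, Jak1, Lif and Stat3 lie within 0.1 of the line.

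In their promoters the 8 genes were of more than one kind. RefSeq gives 10 start sites for them on the GRCm38.p6 build, and the 250 bases before each were read. CpG sites, the main place of cytosine methylation and of its oxidised forms, numbered 6 before Lif, which equals the median of all 32851 starts, and 13 before Stat3. They numbered 19 before Jak1, 26 each before Il6st and Socs3, and 31 before Pim3. Lifr and Pim1 each have a CpG-rich start, with 43 and 36 sites, and a poor one, with 3 and 4. Of the 6 genes with 1 start, Lif had the fewest CpG sites and Pim3 the most. Their windows are shown for this contrast, 5′ to 3′ with each CpG in capitals, for Lif at chr11:4257318-4257567 and for Pim3 at chr15:88861944-88862193, both on the plus strand.
Lif: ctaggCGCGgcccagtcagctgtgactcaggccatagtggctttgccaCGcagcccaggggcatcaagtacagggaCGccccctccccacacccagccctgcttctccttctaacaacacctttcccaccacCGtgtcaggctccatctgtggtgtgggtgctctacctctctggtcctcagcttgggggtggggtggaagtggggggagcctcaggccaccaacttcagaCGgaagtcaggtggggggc
Pim3: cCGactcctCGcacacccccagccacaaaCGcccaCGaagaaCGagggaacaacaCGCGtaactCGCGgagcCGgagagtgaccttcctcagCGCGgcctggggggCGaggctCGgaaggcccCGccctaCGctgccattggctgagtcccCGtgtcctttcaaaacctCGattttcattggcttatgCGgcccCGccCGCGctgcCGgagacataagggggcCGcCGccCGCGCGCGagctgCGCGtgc

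STAT proteins bind DNA at TTCCNGGAA and, less strictly, at TTCNNNGAA, which includes it. Both read the same on either strand. None of the 10 windows of the 8 genes held TTCCNGGAA, which 0.913% of all windows hold. Of the 10, the Socs3 window alone held TTCNNNGAA, which 7.02% of all windows hold, with its first base 154 bases before the start. This match is shown with its flanks, at chr11:117969502-117969530 of GRCm38.p6 on the minus strand, with the motif in capitals.
Socs3: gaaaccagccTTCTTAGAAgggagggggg
A match of letters is a description of this window, and sites further away were not searched. The 5fC, 5hmC and p300 regions of the series are on the mm9 build, for which no annotation was at hand, so they were not tied to the 8 genes.

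The identity of the cells was read from markers. Tdg itself had 9.48 FPKM in Tdg -/- cells, against 22.1 FPKM in Tdg fl/fl cells, and the labels do not state which part of the gene the deletion takes. Of 8 ES cell markers all were measured, 5 above and 3 below 0, with a median of 0.05. The log2 change was 0.53 for Utf1, 0.24 for Sox2, 0.16 for Esrrb, 0.07 for Fgf4, 0.02 for Tdgf1, -0.04 for Pou5f1, and -0.05 for both Nanog and Zfp42. The change of Utf1 was larger than that of any of the 8 pathway genes. These markers were abundant, with Pou5f1 at 612 FPKM in Tdg -/- cells and 630.5 FPKM in Tdg fl/fl cells and Nanog at 456 FPKM in Tdg -/- cells and 473 FPKM in Tdg fl/fl cells. Of 10 fibroblast markers, 3 were measured, Acta2 at -0.33, Thy1 at -0.31 and Twist1 at -0.28, and the other 7, Col1a1 and Dcn among them, stayed at or below 0.304 FPKM in Tdg -/- cells and 0.418 FPKM in Tdg fl/fl cells, with Lum listed at 0 in both. The summed level of the 10 was 6.10 FPKM in Tdg -/- cells and 8.30 FPKM in Tdg fl/fl cells. Of 10 primitive endoderm markers, 1 was measured, Gata4 at 0.03, and the summed level was 2.95 FPKM in Tdg -/- cells and 3.43 FPKM in Tdg fl/fl cells. In such bulk RNA, fewer cells of a kind and less RNA per cell cannot be told apart, and the part of other cell types in the values of the 8 genes was not tested.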

How the data were processed

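The authors deposited 1 table of FPKM values for each genotype, which the labels tie to its 2 polyA RNA libraries. TopHat 1.4.1 and Cufflinks 1.3.0 with build mm9 are named in the submitters' processing notes. How the libraries were combined, the gene annotation and the use of strand in counting are not stated there. The tables hold 20437 rows for 20286 symbols, and rows of one symbol were summed. They give no read numbers, so the depth behind each value is unknown. Of the 30 libraries of the series, 4 are of RNA; the other 26, and the 8 region lists, were not used here. Changes are log2((Tdg -/- FPKM + 1)/(Tdg fl/fl FPKM + 1)), a scale that shrinks the change of low genes. A gene with at least 1 FPKM in either genotype was measured. Chromosome and gene order came from the RefSeq table of GRCm38.p6, in which 20129 symbols matched 1 position, and neighbours are the 25 nearest measured genes. Promoter sequences are RefSeq's, of the same build, and all 8 symbols matched. The steps were tested on simulated data without noise, a check of the calculation only. They were run in Python 3.11.15 with pandas 2.3.3 and numpy 2.4.6. The 8 genes and the lists were chosen with earlier results of these data known. Genes named from a list are the 3 measured ones with the largest absolute change, with the ES cell markers and any measured gene of the other marker lists; 1 gene of the JAK and STAT list is not reported here; genes named for their family's order of levels were chosen after their values were seen. With 2 pooled values per gene, no gene could be ranked by likeness of pattern. Alternatives were another pseudocount, quantile normalization, centring, another FPKM minimum, the highest row of a symbol, leaving out chromosome 11 and other numbers of neighbours.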

Additional observations from a re-analysis of the deposited data

How the results depend on the processing

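The sign of each of the 8 log2 changes was kept with the other pseudocount, after quantile normalization and after centring, and the largest move was 0.10, for Lif with a pseudocount of 0.1 FPKM. Alternatives were read against 0.18, a spread of the log2 change over all genes measured (0.5 of the distance from percentile 16 to percentile 84), since there are no replicates. Taking the highest row of each symbol could not move them, since each has 1 row. The number of genes at least 2-fold higher in Tdg -/- cells was 58 and of those lower 52 with a pseudocount of 0.1 FPKM, and 11 and 11 with a minimum of 5 FPKM, against 22 and 21. The median of the fibroblast markers was -0.0083 with no FPKM minimum, since most are near 0. The median of the STAT3 targets turned to 0.01 with a minimum of 5 FPKM, and that of the primitive endoderm markers to -0.01 after quantile normalization and -0.04 with no FPKM minimum. Distances to neighbours turned sign for Lif and Jak1, whose ranges were -0.04 to 0.08 and -0.07 to 0.02, while Pim1 stayed between 0.33 and 0.37 and Socs3 between 0.15 and 0.33. No paired analysis was possible because each genotype has 1 pooled value per gene, and for the same reason no library could be left out. Overlaps of the region lists with the 8 genes were not run.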
